A study of Mus musculus with 18 samples.

Results

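The data described here are the RNA levels of CD8 T cells in which the PI3K delta inhibitor IC87114 was added to antigen stimulation, in libraries labelled as knockout (KO) for TrIP. TrIP is the transmembrane PI3K-interacting protein encoded by Pik3ip1, a negative regulator of PI3K in T cells. All libraries with that genotype label and gp33 stimulation were taken, which gave 6 libraries of the 18 in the series. Of these, 3 came from KO cells with gp33 and IC87114, and 3 from KO cells with gp33 and no inhibitor. The mice were P14 animals, whose transgenic T cell receptor is specific for gp33, a peptide from lymphocytic choriomeningitis virus, and the TrIP deletion was limited to CD8 cells. Which promoter drove the deletion was not given in the labels. Whole spleen cells were cultured for 24 h with 50 U/ml of recombinant IL-2 and 2 ng/ml of IL-12 in all groups. The high-affinity gp33 peptide was used at 100 ng/ml and IC87114 at 10 µM, and the CD8 T cells were sorted after culture, so the other spleen cells met the inhibitor too. Whether cultures without IC87114 received its solvent was not stated. A further 3 groups of 3 libraries are used for levels or side by side: wild-type (WT) cells with gp33 and IC87114, WT cells with gp33, and KO cells without peptide. The labels do not say whether replicates were separate mice or separate cultures. The p-values rest on the spread within groups, taken over all 18 libraries. These include 3 from WT cells without peptide. The spread may be technical.

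PI3K delta is the catalytic isoform that leukocytes use downstream of the T cell receptor, CD28 and the IL-2 receptor. Its lipid product recruits AKT, which turns on mTORC1 and holds FOXO transcription factors out of the nucleus. In activated CD8 T cells this pathway is known for its part in growth, glycolysis, cytokine and granzyme production, and in the loss of naive-cell genes that FOXO1 keeps on.

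Values are normalized values, obtained by undoing the log2(value + 1) scale of the authors' table, and their depth is unknown. A log2 difference is the mean of log2(value + 1) with IC87114 minus that without it, given ± its standard error from limma, and it is smaller than the true ratio for genes with low values. The standard error uses the spread within groups over all 18 libraries, so it is not that of the 6 libraries compared alone. A gene was called at an adjusted p under 0.05 over 10257 genes tested. The summed values were between 622900 and 630700 with IC87114 and between 538900 and 552500 without it. Processed pseudogenes held 65.2% to 65.6% of the sum with IC87114 and 63.7% to 64.4% without it. Protein-coding genes held 26.6% to 26.9% with IC87114 and 27.9% to 28.5% without it. Genes above 0 numbered 20517 to 20550 with IC87114 and 21064 to 21214 without it. A library correlated with the others of its group at 0.996 with IC87114, and at 0.993 to 0.994 without it.

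Pik3ip1 (ENSMUSG00000034614), the gene whose loss the label names, had normalized values of 2.51, 2.58 and 2.18 with IC87114, against 1.53, 1.67 and 1.63 without it. Without peptide, the libraries labelled KO held 76.1 ± 2.36 (SD, n = 3). The gene was therefore present in the libraries labelled KO, and at higher values than in WT libraries with gp33, which were at 0.656, 0.616 and 0.624 with IC87114 and 0.863, 0.773 and 0.655 without it. Gene-level values cannot tell whether reads fell in deleted or in retained exons. Both groups of the main comparison carry the same label, so an exchange of genotype labels would change its name and not its direction.

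Markers of the sorted cells were present: the 11 CD8 T cell marker genes summed to between 1760 and 1840 with IC87114 and between 1430 and 1610 without it. Of these 11 genes, 3 were called higher and 1 lower. B cell markers (16 genes) summed to between 122 and 159 with IC87114 and between 229 and 1030 without it, and 3 of the 11 tested were called lower, or 1 without replicate 1 of the libraries lacking IC87114, where 27.5% of all protein-coding genes tested were called lower. MHC class II genes (9 genes) summed to between 10.5 and 12.4 against between 27.8 and 40.8, with 6 of 9 called lower. Myeloid and dendritic cell markers (18 genes) summed to between 60.4 and 97.8 against between 110 and 147, with 1 of 7 called lower. NK cell markers (8 genes) summed to between 1.11 and 3.41 against between 3.44 and 4.07, and Klra4, Klra8 and Ncr1 were listed at 0 in all libraries with IC87114. CD4 T cell markers (6 genes) summed to between 4.62 and 5.71 against between 3.34 and 4.34, with Ctla4 the 1 tested and called higher, and of the 3 erythroid and platelet genes tested 0 were called. The summed level of the B cell, MHC class II, myeloid and NK lists was thus lower in every library with IC87114 than in any without it. The share of genes called lower was above that of protein-coding genes in the MHC class II list and not in the B cell and myeloid lists. Of the 3 NK genes tested, 1 was called lower. The part of these cells in the differences described next was not tested. Without peptide, the libraries labelled KO summed to between 1830 and 21100 for B cell markers and between 218 and 332 for MHC class II genes. Sums there were between 140 and 226 for myeloid and between 13.3 and 15.3 for NK markers. CD8 T cell markers summed to between 2890 and 3190 there, and CD4 markers to between 2.17 and 2.77. The part of other cells in the levels without peptide given below was not tested.

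With IC87114, cytokine, cytotoxic and p53 target genes of the stimulated KO cells were lower, while interferon gamma response, cholesterol synthesis and some cell cycle genes were higher. Of the 10257 genes tested, 2917 (28.4%) were called, 941 higher (9.17%) and 1976 lower (19.3%). Among the 5800 protein-coding genes, 35.7% were called, 8.24% higher and 27.5% lower. Counts of list members called below are to be read beside these shares. Some genes belong to several lists, so the counts of different lists are not separate from each other. Examples are Pmaip1 (p53 targets and BCL2 family), Sesn2 (p53 targets and integrated stress response) and Ddit4 (PI3K pathway and hypoxia). Changes of at least 1 on the log2 scale were found for 78 genes called higher and 352 called lower. The median log2 difference was -0.04 over all genes tested and -0.1 over protein-coding genes. In bulk samples, fewer cells of a type and less RNA per cell cannot be told apart.

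The share of calls that were higher depended on the scaling. It was 32.3% as given, 56.5% with each library centred on its median (1571 higher and 1209 lower), and 14.1% with protein-coding genes rescaled to equal sums (374 higher and 2281 lower). Centring moved the median gene by 0.12 and rescaling by -0.08 on the log2 scale. With a filter 5 times as high, 46.1% of the calls were higher, with no filter 22.0%, and 40.0% after leaving out WT gp33 with IC87114 replicate 2, which enters the shared spread.

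**Figure D1:**
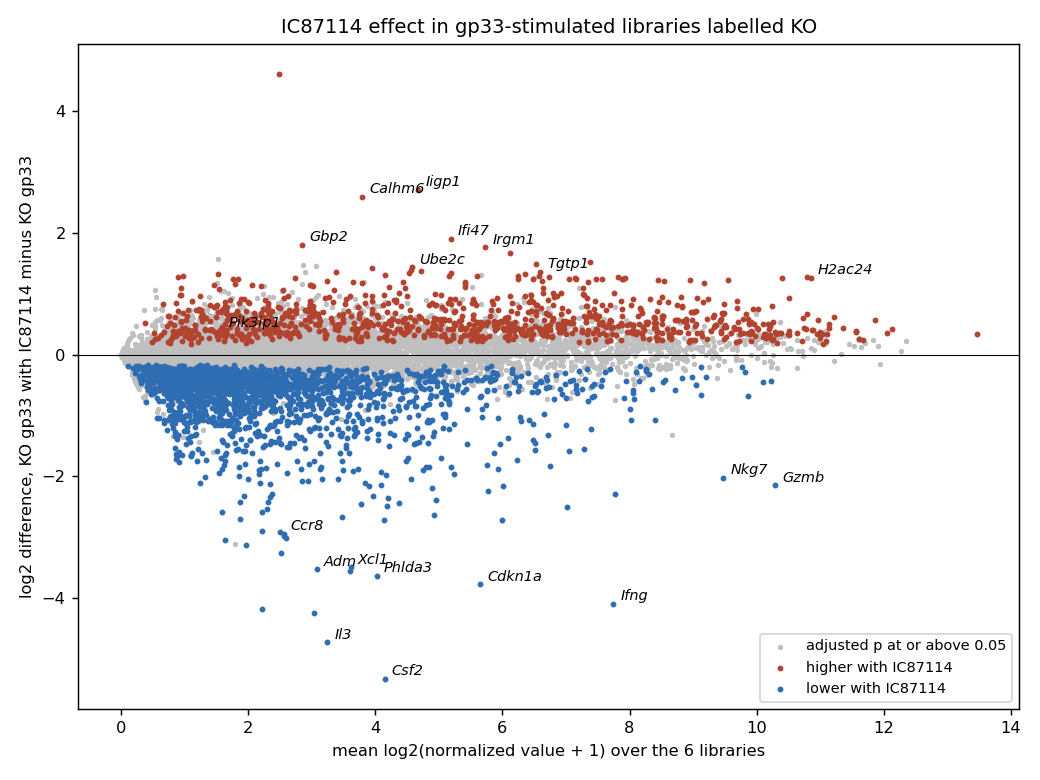
Log2 difference of each gene tested (vertical axis, KO gp33 with IC87114 minus KO gp33) against its mean log2(normalized value + 1) over the 6 libraries (horizontal axis). Red and blue points were called higher and lower, and grey points were not called. Csf2, Il3 and Ifng lie lowest among the labelled genes, and Iigp1 and Calhm6 highest; the topmost point is an unnamed miRNA gene outside the naming rule.

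Cytokine genes fell together. Of 11 tested, 9 were called lower and 0 higher, with a median log2 difference of -1.88, where 27.5% of all protein-coding genes tested were called lower. Csf2, which encodes the myeloid growth factor GM-CSF, had normalized values of 3.41, 1.67 and 0.842 with IC87114, against 98, 162 and 86.6 without it (log2 difference -5.33 ± 0.36, adjusted p = 9.1e-08). The other myelopoietic cytokine of the same locus, Il3, was at 0.812, 1.62 and 0.305 with IC87114, against 42.4, 56.2 and 45.9 without it (log2 difference -4.73 ± 0.19, adjusted p = 3.4e-10). In both genes the groups lay far apart, and without peptide the level was 0.443 ± 0.597 (SD, n = 3) for Csf2 and 0.0245 ± 0.0237 (SD, n = 3) for Il3. For Il3 the 3 libraries with IC87114 lay above those without peptide.

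Ifng, the main macrophage-activating cytokine of CD8 T cells, had values of 66.3, 43.5 and 45.1 with IC87114, against 1092, 725 and 872 without it (log2 difference -4.10 ± 0.75, adjusted p = 9.7e-04). Without peptide it varied widely, at 2.88, 48.6 and 1.5, and the replicate with 48.6 lay within the range of the libraries with IC87114. These values enter the standard error given for Ifng. Il2, the T cell growth factor, was at 4.58, 4.32 and 5.74 with IC87114, against 27.9, 36.1 and 30.2 without it (log2 difference -2.46 ± 0.18, adjusted p = 1.8e-07). For Il2 the 3 libraries with IC87114 lay above the 3 without peptide, at 1.18, 0.633 and 0.725, and below all 3 with gp33 alone. Il22, an epithelial-barrier cytokine, was at 0.0161, 0.220 and 0.0168 with IC87114, against 6.14, 11.2 and 7.36 without it (log2 difference -3.06 ± 0.14, adjusted p = 1.9e-09), again with no overlap of the groups.

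The remaining cytokine calls were smaller. Lta, which encodes lymphotoxin alpha, changed by -1.88, Osm (oncostatin M) by -1.08, Lif (leukaemia inhibitory factor) by -1.07 and Ltb (lymphotoxin beta) by -1.05 on the log2 scale. Tnf, the inflammatory cytokine, did not pass the threshold, at 11.2, 9.54 and 9.46 with IC87114, against 17.1, 12.9 and 16.8 without it (log2 difference -0.58 ± 0.22, adjusted p = 0.06; called with only the 6 libraries compared in the fit, after protein-coding rescaling, and without replicate 2 of the WT libraries with gp33 and IC87114). Il16 also did not pass (log2 difference 0.14 ± 0.07, adjusted p = 0.17).

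Chemokine and TNF superfamily ligand genes moved the same way. Of 8 chemokine genes tested, 5 were called lower and 0 higher (median -1.81). Xcl1, which attracts cross-presenting dendritic cells, was at 4.04, 1.36 and 3.04 with IC87114, against 40.9, 35.1 and 45.2 without it (log2 difference -3.50 ± 0.37, adjusted p = 7.9e-06). Ccl22, a ligand of CCR4 that dendritic cells also make, was at 0.646, 1.96 and 0.901 with IC87114, against 11.2, 18.2 and 19 without it (log2 difference -2.99 ± 0.43, adjusted p = 1.2e-04). Ccl9 changed by -2.70 and Cxcl16 by -1.06 on the log2 scale, and no chemokine value with IC87114 named here overlapped a value without it.

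Of 10 TNF superfamily ligands, 9 were called lower (median -1.57). Tnfsf4, which encodes OX40 ligand, was at 1.92, 1.08 and 1.11 with IC87114, against 8.22, 12.1 and 11.5 without it (log2 difference -2.29 ± 0.14, adjusted p = 3.4e-08). Tnfsf11, which encodes the osteoclast factor RANKL, was at 0.255, 0.248 and 0.232 with IC87114, against 3.58, 4.89 and 3.7 without it (log2 difference -2.01 ± 0.08, adjusted p = 3.4e-10). Cd70, the ligand of CD27, was at 0.620, 0.308 and 0.546 with IC87114, against 3.94, 5.21 and 5.15 without it (log2 difference -1.95 ± 0.10, adjusted p = 3.2e-09) and was listed at 0 in all 3 libraries without peptide. In each of these genes the highest library with IC87114 lay under the lowest without it.

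Cytotoxic genes fell as a group, with exceptions. Of 16 tested, 12 were called lower and 2 higher (median -1.35). Gzmb, the main apoptosis-inducing granzyme, was at 464, 705 and 628 with IC87114, against 2604, 2507 and 2779 without it (log2 difference -2.15 ± 0.49, adjusted p = 0.0045). Prf1, the pore-forming perforin, was at 1.33, 1.67 and 1.31 with IC87114, against 10.4, 9.62 and 9.0 without it (log2 difference -2.13 ± 0.15, adjusted p = 1.2e-07). Without peptide Prf1 was at 8.15 ± 1.16 (SD, n = 3), close to the level with gp33 alone, so the libraries with IC87114 were the lowest of the 3 KO conditions. Nkg7, a granule membrane protein needed for degranulation, was at 391, 327 and 343 with IC87114, against 1193, 1619 and 1538 without it (log2 difference -2.02 ± 0.13, adjusted p = 4.5e-08), and at 1663 ± 161 (SD, n = 3) without peptide, so the libraries with IC87114 were again the lowest.

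Gzmc, a granzyme of strongly stimulated killer cells, was at 0.396, 0.207 and 0.361 with IC87114, against 11.1, 8.77 and 12.1 without it (log2 difference -3.13 ± 0.28, adjusted p = 1.8e-06). Gzma changed by -1.44 and Fasl, the death ligand, by -1.25. Serpinb9, the inhibitor that protects killer cells from their own granzyme B, fell alongside it, at 47, 56.7 and 53.4 with IC87114, against 148, 158 and 166 without it (log2 difference -1.57 ± 0.16, adjusted p = 6.7e-06), and its relatives Serpinb6b (-2.19) and Serpinb9b (-1.65) fell too. The 2 members that rose were Srgn, the granule proteoglycan serglycin, at 60.1, 56.8 and 58.7 with IC87114, against 36.2, 40.0 and 45.6 without it (log2 difference 0.52 ± 0.08, adjusted p = 2.1e-04), and Ctsc, the protease that activates granzymes (log2 difference 0.24 ± 0.07, adjusted p = 0.016; lost after protein-coding rescaling, at 0.137, without replicate 3 with IC87114, at 0.210, or replicate 2 without it, at 0.200).

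**Figure D2:**
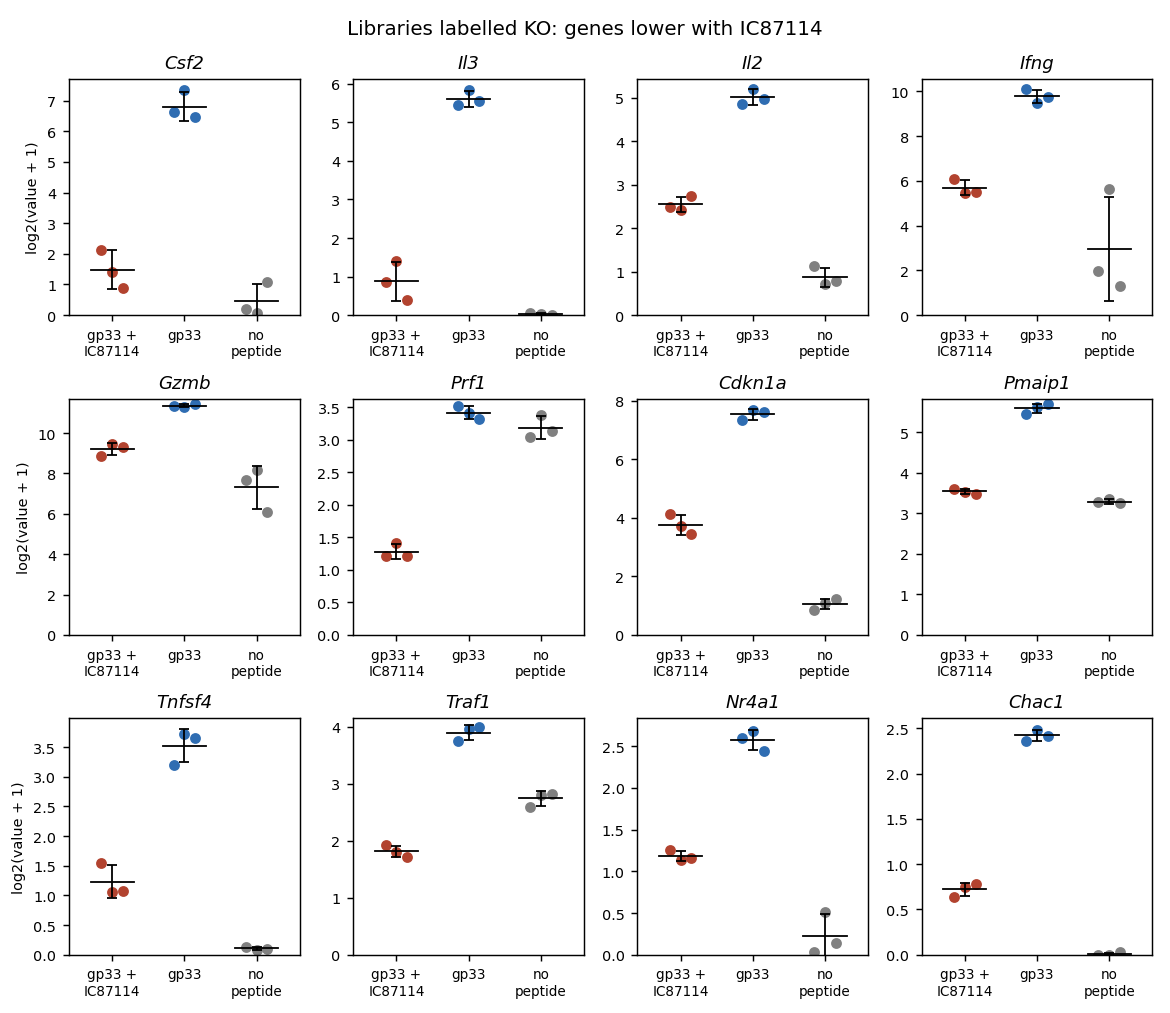
Log2(normalized value + 1) of 12 genes (vertical axes) in the libraries labelled KO with gp33 and IC87114, with gp33 alone and without peptide (horizontal axes). Points are libraries, horizontal lines means and bars the SD of 3. All 3 libraries with IC87114 lie below all 3 with gp33 alone in each gene.

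Genes that T cell receptor signalling turns on within hours were lower at 24 h. Of 18 NR4A, EGR and AP-1 family genes tested, 14 were called lower and 0 higher (median -0.77). Nr4a1, an orphan nuclear receptor used as a reporter of receptor signal strength, was at 1.39, 1.21 and 1.23 with IC87114, against 5.06, 5.42 and 4.44 without it (log2 difference -1.39 ± 0.11, adjusted p = 4.5e-07). Nr4a2 changed by -1.48, Fosl1, an AP-1 subunit, by -2.11, and Fos, another, by -1.81. Among ERK feedback genes, 6 of 7 were called lower, including the phosphatase genes Dusp1 (-0.82), Dusp4 (-0.57) and Dusp5 (-0.60) and the inhibitor Spry1 (-0.74). The ERK feedback genes called lower numbered 4 after median centring and 6 after protein-coding rescaling.

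NF-kB subunit and feedback genes were lower in 12 of 13 cases (median -0.71). After median centring 9 were called lower, and after protein-coding rescaling 12. Rel, the subunit that lymphocytes need for IL-2 transcription, was at 1.26, 1.08 and 1.13 with IC87114, against 3.78, 3.54 and 3.52 without it (log2 difference -1.10 ± 0.08, adjusted p = 1.9e-07). Tnfaip3, which encodes the feedback inhibitor A20, was at 0.535, 0.520 and 0.662 with IC87114, against 4.09, 5.59 and 4.73 without it (log2 difference -1.88 ± 0.11, adjusted p = 1.8e-08), and the adaptor gene Traf1 was at 2.78, 2.49 and 2.29 with IC87114, against 12.3, 14.5 and 14.8 without it (log2 difference -2.08 ± 0.09, adjusted p = 6.6e-10). Cd83, which activated B cells and dendritic cells also express, fell by 2.06; the lower sums of B cell and dendritic cell markers stand beside it, and their part was not tested.

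Cytokine signalling genes moved in both directions. Of 13 JAK-STAT feedback and PIM kinase genes, 9 were called lower and 1 higher. Stat5a, which carries the IL-2 signal, was at 0.948, 0.934 and 1.14 with IC87114, against 3.62, 3.71 and 3.09 without it (log2 difference -1.16 ± 0.08, adjusted p = 9.6e-08), and Stat3 changed by -0.79. The gene that rose was Pim2, a survival kinase induced by cytokines, at 151, 153 and 137 with IC87114, against 99.2, 78.1 and 74.1 without it (log2 difference 0.81 ± 0.10, adjusted p = 3.2e-05). Among cytokine receptor chains, 8 of 19 were called lower, including Il21r (-0.85) and Ifnar1 (-0.51), beside 27.5% of all protein-coding genes called lower. The 1 called higher was Il2rg, the chain shared by IL-2 family receptors (log2 difference 0.36 ± 0.07, adjusted p = 0.0012). The receptor chains called lower numbered 4 after median centring and 11 after protein-coding rescaling.

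Transcription factors of effector fate were affected in part. Of 15 tested, 9 were called lower and 0 higher (median -0.31), beside 27.5% of all protein-coding genes called lower. After median centring 6 were called lower, and after protein-coding rescaling 10. Id2, which favours effector over memory cells, was at 46.2, 37.8 and 40.5 with IC87114, against 95.8, 124 and 106 without it (log2 difference -1.37 ± 0.12, adjusted p = 1.4e-06). Bhlhe40, a regulator of cytokine output and mitochondrial function, was at 35.3, 31.7 and 29.8 with IC87114, against 101, 102 and 101 without it (log2 difference -1.63 ± 0.20, adjusted p = 3.7e-05). Irf8 changed by -0.83 and Hic1 by -0.98. The master regulators Tbx21, which encodes T-bet (log2 difference -0.16 ± 0.11, adjusted p = 0.31), Eomes (log2 difference -0.31 ± 0.12, adjusted p = 0.06) and Irf4 (log2 difference 0.24 ± 0.15, adjusted p = 0.27) did not pass the threshold, although Eomes and Irf4 were called with only the 6 libraries compared in the fit, and Eomes also after protein-coding rescaling and without replicate 2 of the WT libraries with gp33 and IC87114.

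Genes that FOXO factors activate did not rise as a group. Of 17 tested, 1 was called higher, Pik3ip1 (log2 difference 0.39 ± 0.08, adjusted p = 0.0014), and 8 were called lower (median -0.57). Klf2, a factor for recirculation of naive cells, was at 1.79, 1.49 and 1.33 with IC87114, against 1.11, 1.5 and 1.22 without it (log2 difference 0.15 ± 0.10, adjusted p = 0.26), with overlapping groups. Il7r, the receptor chain of resting T cells, was lower, at 0.745, 1.01 and 1.0 with IC87114, against 2.63, 3.34 and 2.75 without it (log2 difference -1.02 ± 0.12, adjusted p = 1.4e-05), and without peptide at 34.9 ± 2.01 (SD, n = 3). Ccr7, the receptor for lymph node chemokines, was at 194, 175 and 167 with IC87114, against 317, 461 and 362 without it (log2 difference -1.07 ± 0.15, adjusted p = 8.4e-05), and S1pr1, the exit receptor, changed by -0.70.

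Trp53inp1, a target of FOXO and p53 that promotes cell death, was the list's most lowered member, at 0.825, 0.664 and 0.644 with IC87114, against 5.34, 11 and 7.36 without it (log2 difference -2.33 ± 0.18, adjusted p = 3.7e-07). Txnip, which restrains glucose uptake, changed by -0.57, Ccng2 by -1.05, and Btg1, an antiproliferative gene, by -1.20. For Btg1 replicate 2 without IC87114 stood apart, at 16.9, 20.7 and 26.7 with IC87114, against 32.5, 93.5 and 40.2 without it, and without that library the difference was -0.751. Of the 17 naive and memory genes tested, 10 were called lower and 1 higher, and Il7r, Ccr7 and S1pr1 belong to both lists. After median centring 8 were called lower and 1 higher, and after protein-coding rescaling 10 and 0. Tcf7, the memory factor TCF1, was at 1.81, 1.51 and 1.56 with IC87114, against 2.02, 2.58 and 2.02 without it (log2 difference -0.29 ± 0.10, adjusted p = 0.047). This call was lost in each fit that left out 1 of the 6 libraries, after median centring, with no filter and with the replicate block.

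Components of the PI3K pathway itself were called in both directions, 6 of 12, beside 35.7% of all protein-coding genes tested. Those called higher numbered 2, Pik3ip1 and Pik3cd, the target of IC87114 (log2 difference 0.29 ± 0.08, adjusted p = 0.011, lost without replicate 1 with IC87114, at 0.249, or replicate 3 without it, at 0.242), and those called lower 4. Eif4ebp1, the translation repressor that mTORC1 inactivates, was at 7.52, 7.79 and 7.48 with IC87114, against 17.5, 17.1 and 17.6 without it (log2 difference -1.10 ± 0.09, adjusted p = 5.5e-07). Ddit4, an mTORC1 inhibitor induced by stress and hypoxia, was at 0.646, 0.596 and 0.655 with IC87114, against 3.38, 6.97 and 4.42 without it (log2 difference -1.81 ± 0.18, adjusted p = 3.6e-06).

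Glycolytic genes showed almost no calls. Of 16 tested, 1 was called higher and 1 lower, with a median of -0.04. Slc16a1, a lactate exporter, was at 6.18, 6.74 and 7.17 with IC87114, against 4.7, 4.11 and 4.25 without it (log2 difference 0.52 ± 0.10, adjusted p = 0.0017), and Hk2, the first enzyme of glycolysis, at 1.14, 1.21 and 0.995 with IC87114, against 2.69, 4.12 and 1.41 without it (log2 difference -0.76 ± 0.19, adjusted p = 0.0067). The Hk2 difference was -0.499 without replicate 2 and -1.044 without replicate 3 of the libraries lacking IC87114, and was not called with only the 6 libraries compared in the fit. Slc2a1, the glucose transporter GLUT1, was at 2.03, 2.37 and 2.15 with IC87114, against 2.19, 2.03 and 2.06 without it (log2 difference 0.04 ± 0.07, adjusted p = 0.74), and Ldha, lactate dehydrogenase, at 153, 165 and 157 with IC87114, against 183, 174 and 177 without it (log2 difference -0.17 ± 0.08, adjusted p = 0.15). Ldha was called lower with only the 6 libraries compared in the fit, after protein-coding rescaling, and without replicate 2 of the WT libraries with gp33 and IC87114. Values of Ldha and Gapdh depend on how reads were divided among many processed pseudogenes.

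Hypoxia-inducible genes outside glycolysis had 7 of 15 called lower, beside 27.5% of all protein-coding genes. After median centring 5 were called lower, and after protein-coding rescaling 7. Adm, the vasodilator adrenomedullin, was at 3.29, 0.887 and 0.896 with IC87114, against 26.6, 26.1 and 30.8 without it (log2 difference -3.53 ± 0.28, adjusted p = 5.2e-07), and Hilpda, a lipid-droplet protein, changed by -1.08. Hif1a, the factor that drives this response, was at 5.01, 6.04 and 5.84 with IC87114, against 4.88, 4.6 and 4.7 without it (log2 difference 0.21 ± 0.09, adjusted p = 0.1), and its targets Bnip3 (0.22) and Pdk1 (0.05) did not pass the threshold.

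Targets of p53, the DNA damage and stress factor, fell together. Of 22 tested, 18 were called lower and 0 higher (median -1.46), and 18 were called lower in each fit that left out 1 of the 6 libraries. After median centring 2 were called higher. Replicate 1 was the lowest of the 3 libraries without IC87114 in 18 of the 18 genes called lower and replicate 2 the highest in 16, and replicate 1 was the highest of the libraries with IC87114 in 13. Cdkn1a, the cell cycle inhibitor p21, was at 16.4, 12.2 and 9.85 with IC87114, against 159, 202 and 197 without it (log2 difference -3.78 ± 0.15, adjusted p = 3.4e-10), against 1.08 ± 0.257 (SD, n = 3) without peptide. Phlda3, an inhibitor of AKT that p53 induces, was at 4.69, 3.24 and 3.05 with IC87114, against 48.3, 73.1 and 50.6 without it (log2 difference -3.64 ± 0.20, adjusted p = 1.3e-08), and Plk2, a stress kinase, changed by -2.91. Pmaip1, the BH3-only killer protein NOXA, was at 11.1, 10.6 and 10.1 with IC87114, against 42.8, 48.1 and 50.4 without it (log2 difference -2.05 ± 0.10, adjusted p = 3.2e-09); without peptide it held 8.78 ± 0.340 (SD, n = 3), near the level with IC87114.

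Genes of the BCL2 family fell on both sides of the death decision. Of 11 tested, 9 were called lower. Besides the killer gene Pmaip1, the survival gene Bcl2l1, which encodes BCL-XL, was lower at 2.25, 1.91 and 1.85 with IC87114, against 5.06, 5.18 and 4.9 without it (log2 difference -1.01 ± 0.09, adjusted p = 8.0e-07). Bcl2a1d (-1.81) and Bcl2a1a (-1.41), near-identical survival genes among which reads may be divided uncertainly, were lower too.

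Integrated stress response genes, which the factors ATF4 and CHOP control, were lower in 12 of 15 cases, with 1 higher (median -0.97). Chac1, a glutathione-degrading enzyme, was at 0.561, 0.674 and 0.723 with IC87114, against 4.14, 4.6 and 4.33 without it (log2 difference -1.70 ± 0.07, adjusted p = 3.4e-10). Ddit3, which encodes CHOP, was at 2.28, 2.34 and 2.65 with IC87114, against 8.02, 7.96 and 9.22 without it (log2 difference -1.45 ± 0.09, adjusted p = 4.0e-08), and at 13.2 ± 0.483 (SD, n = 3) without peptide, above both stimulated groups. Sesn2, an amino acid sensor, changed by -1.62, Nupr1 by -1.75 and the pseudokinase Trib3 by -1.09. The promoters of Chac1 and Trib3 are printed because this gene group fell together and both hold the C/EBP-ATF element, TGATGNAA, to which ATF4 heterodimers bind; the element is in capitals on either strand. The sequences are from RefSeq on GRCm38.p6, run from 250 bases before to 50 after the start, and lie at chr2:119350992-119351291 (plus strand) and chr2:152344011-152344310 (minus strand).
Chac1: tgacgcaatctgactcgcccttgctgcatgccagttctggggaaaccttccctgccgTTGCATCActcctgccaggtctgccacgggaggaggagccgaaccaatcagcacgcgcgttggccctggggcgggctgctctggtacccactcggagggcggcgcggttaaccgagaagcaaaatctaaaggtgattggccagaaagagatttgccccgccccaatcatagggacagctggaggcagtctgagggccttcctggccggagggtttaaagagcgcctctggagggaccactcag
Trib3: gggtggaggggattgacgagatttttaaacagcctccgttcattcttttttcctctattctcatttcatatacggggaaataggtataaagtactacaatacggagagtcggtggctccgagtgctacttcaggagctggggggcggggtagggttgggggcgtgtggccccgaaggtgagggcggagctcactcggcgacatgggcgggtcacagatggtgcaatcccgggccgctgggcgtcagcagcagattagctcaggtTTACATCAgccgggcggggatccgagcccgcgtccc
The element was in the 300-base window of 6 of the 15 tested list members, all of which had a promoter in the table, and in 4.51% of all 27025 genes. A match is a description of the letters and not a bound site.

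Several receptors at the cell surface fell. Of 20 trafficking receptors and integrins tested, 12 were called lower and 0 higher, beside 27.5% of all protein-coding genes called lower. After median centring 8 were called lower, and after protein-coding rescaling 13. Ccr8, a chemokine receptor of skin-homing cells, was at 0.839, 1.13 and 1.43 with IC87114, against 14.5, 16.7 and 14.9 without it (log2 difference -2.95 ± 0.12, adjusted p = 3.5e-10). Gpr183, the oxysterol receptor EBI2, was at 1.09, 1.12 and 0.996 with IC87114, against 14.5, 14 and 15.4 without it (log2 difference -2.92 ± 0.11, adjusted p = 2.8e-10), and at 26.4 ± 1.29 (SD, n = 3) without peptide, above both stimulated groups. B cell marker sums were also higher in the libraries without peptide, and their part was not tested. Cxcr6, a receptor of tissue-resident T cells, changed by -1.94.

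Among inhibitory receptors, 9 of 12 were called lower and 1 higher. Klrc1, which encodes NKG2A, was at 1.22, 0.826 and 1.09 with IC87114, against 8.84, 11.1 and 13.2 without it (log2 difference -2.55 ± 0.18, adjusted p = 1.7e-07), and its partner Klrd1, CD94, changed by -1.88. Cd200 (-1.19) and Btla (-0.91) were lower. The gene that rose was Ctla4, a competitor of CD28, at 4.6, 5.46 and 4.4 with IC87114, against 2.6, 2.17 and 3.13 without it (log2 difference 0.68 ± 0.10, adjusted p = 9.9e-05).

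TNF receptor superfamily genes moved in both directions, with 6 of 11 called lower and 3 higher. Fas, the death receptor, was at 1.27, 1.03 and 0.979 with IC87114, against 3.9, 6.17 and 5.58 without it (log2 difference -1.55 ± 0.13, adjusted p = 7.4e-07), while Icos, a CD28-related costimulator kept on this list, was at 9.07, 9.42 and 9.58 with IC87114, against 5.99, 5.98 and 6.93 without it (log2 difference 0.51 ± 0.07, adjusted p = 8.3e-05). Cd40, which B cells express, changed by -1.0, beside the lower summed B cell markers, whose part was not tested. In the T cell receptor complex and its proximal signalling genes, 3 were called higher and 7 lower of 25, which became 5 and 5 after median centring and 2 and 11 after protein-coding rescaling. The share called lower was close to that of all protein-coding genes. Themis, a regulator of receptor signalling, changed by -0.77, and the adaptor Lcp2 by -0.68.

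The 2 interferon lists moved in opposite directions. Of 25 interferon gamma response genes tested, 17 were called higher and 1 lower (median 0.66), while of 21 type I interferon response genes 14 were called lower and 0 higher (median -0.56). Both splits kept their direction under median centring and protein-coding rescaling, at 17 and 15 higher for the first list and 13 and 15 lower for the second.

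Among the interferon gamma response genes that rose were several that encode interferon-inducible GTPases, which attack vacuoles of intracellular pathogens. Iigp1 was at 61.8, 70.5 and 60.9 with IC87114, against 10.4, 8.59 and 8.11 without it (log2 difference 2.71 ± 0.33, adjusted p = 2.8e-05), Irgm1 at 93.7, 99.3 and 96.8 with IC87114, against 30.0, 25.8 and 27.6 without it (log2 difference 1.76 ± 0.19, adjusted p = 7.0e-06) and Ifi47 at 68.6, 71.1 and 68.4 with IC87114, against 19.1, 16.8 and 17.7 without it (log2 difference 1.90 ± 0.14, adjusted p = 2.7e-07). Gbp2, a guanylate-binding protein, was at 12.4, 12.9 and 11.9 with IC87114, against 2.5, 3.04 and 3.04 without it (log2 difference 1.80 ± 0.14, adjusted p = 4.7e-07), and Gbp4 changed by 1.26. In Irgm1, Ifi47 and Gbp2 the level without peptide was higher still, at 166 ± 6.88 (SD, n = 3), 156 ± 8.15 (SD, n = 3) and 27.3 ± 2.17 (SD, n = 3), so the libraries with IC87114 lay between the other KO conditions.

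Tgtp1 (1.36) and Tgtp2 (1.27), near-identical GTPase genes among which reads may be divided uncertainly, were higher too. H2-K1, a classical MHC class I heavy chain, was at 222, 222 and 210.4 with IC87114, against 108, 110.4 and 110.3 without it (log2 difference 0.99 ± 0.07, adjusted p = 1.0e-07). Calhm6, a channel gene of activated immune cells outside the list, was at 30.9, 32.7 and 35.8 with IC87114, against 4.81, 4.46 and 4.71 without it (log2 difference 2.59 ± 0.08, adjusted p = 1.5e-10), and Gimap7, a lymphocyte GTPase, changed by 1.29. All of these genes stood higher with IC87114 while Ifng RNA stood lower in the same libraries.

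The promoters of Igtp, Irgm1 and Gbp2, interferon gamma response genes that were called higher, are printed to show the elements that interferon signalling is known to use. Capitals mark the core of the interferon-stimulated response element, GAAANNGAA, which IRF factors bind, and, in Igtp only, also the gamma-activated site, TTCNNNGAA, each on either strand. The sequences are from RefSeq on GRCm38.p6 over the same window, at chr11:58199306-58199605 (plus strand), chr11:48871371-48871670 (minus strand) and chr3:142620413-142620712 (plus strand).
Igtp: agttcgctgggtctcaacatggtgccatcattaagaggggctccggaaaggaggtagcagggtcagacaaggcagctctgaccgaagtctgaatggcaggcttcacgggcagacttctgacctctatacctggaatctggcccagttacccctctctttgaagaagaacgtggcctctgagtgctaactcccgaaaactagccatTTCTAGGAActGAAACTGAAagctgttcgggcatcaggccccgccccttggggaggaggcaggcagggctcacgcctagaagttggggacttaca
Irgm1: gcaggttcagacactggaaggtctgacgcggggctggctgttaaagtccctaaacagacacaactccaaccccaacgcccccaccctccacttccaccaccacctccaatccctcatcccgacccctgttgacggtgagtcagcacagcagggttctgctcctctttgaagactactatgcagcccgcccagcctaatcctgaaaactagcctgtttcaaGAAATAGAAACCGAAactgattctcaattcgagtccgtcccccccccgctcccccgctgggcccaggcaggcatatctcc
Gbp2: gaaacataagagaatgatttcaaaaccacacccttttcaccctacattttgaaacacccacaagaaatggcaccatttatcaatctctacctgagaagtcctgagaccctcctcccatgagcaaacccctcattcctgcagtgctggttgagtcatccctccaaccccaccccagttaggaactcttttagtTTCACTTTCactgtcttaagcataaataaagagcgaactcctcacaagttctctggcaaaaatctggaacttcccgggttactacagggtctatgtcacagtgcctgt
Igtp, another of these GTPases, was at 149, 154 and 141 with IC87114, against 60.4, 66 and 64.3 without it (log2 difference 1.21 ± 0.22, adjusted p = 8.5e-04). Of the 25 tested members, 18 had a promoter in the table. The first element was in 9 of them and in 9.76% of all genes, and the second in 5 of them and in 9.55% of all genes. The elements can overlap each other, and Socs1, the list's lowered member, also held the first.

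Socs1, the feedback inhibitor of interferon gamma signalling, was at 27.2, 42.7 and 36 with IC87114, against 67.1, 91.5 and 61.5 without it (log2 difference -1.04 ± 0.30, adjusted p = 0.018); the call was lost without replicate 1 with IC87114 (-0.865) or replicate 2 without it (-0.868). Igtp and Socs1 are named outside the naming rule, after their values were seen. On the type I side, Isg15, a ubiquitin-like modifier, was at 1.93, 2.08 and 1.63 with IC87114, against 6.51, 6.44 and 5.58 without it (log2 difference -1.32 ± 0.12, adjusted p = 2.0e-06), and Usp18, which removes it from proteins, changed by -0.92. Ifitm3, which blocks virus entry, was at 18.4, 21.9 and 33.3 with IC87114, against 162, 157 and 166 without it (log2 difference -2.72 ± 0.32, adjusted p = 2.2e-05), and Ifitm2 changed by -1.82. In Isg15 and Ifitm3 all 3 libraries with IC87114 lay below all 3 without it.

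**Figure D3:**
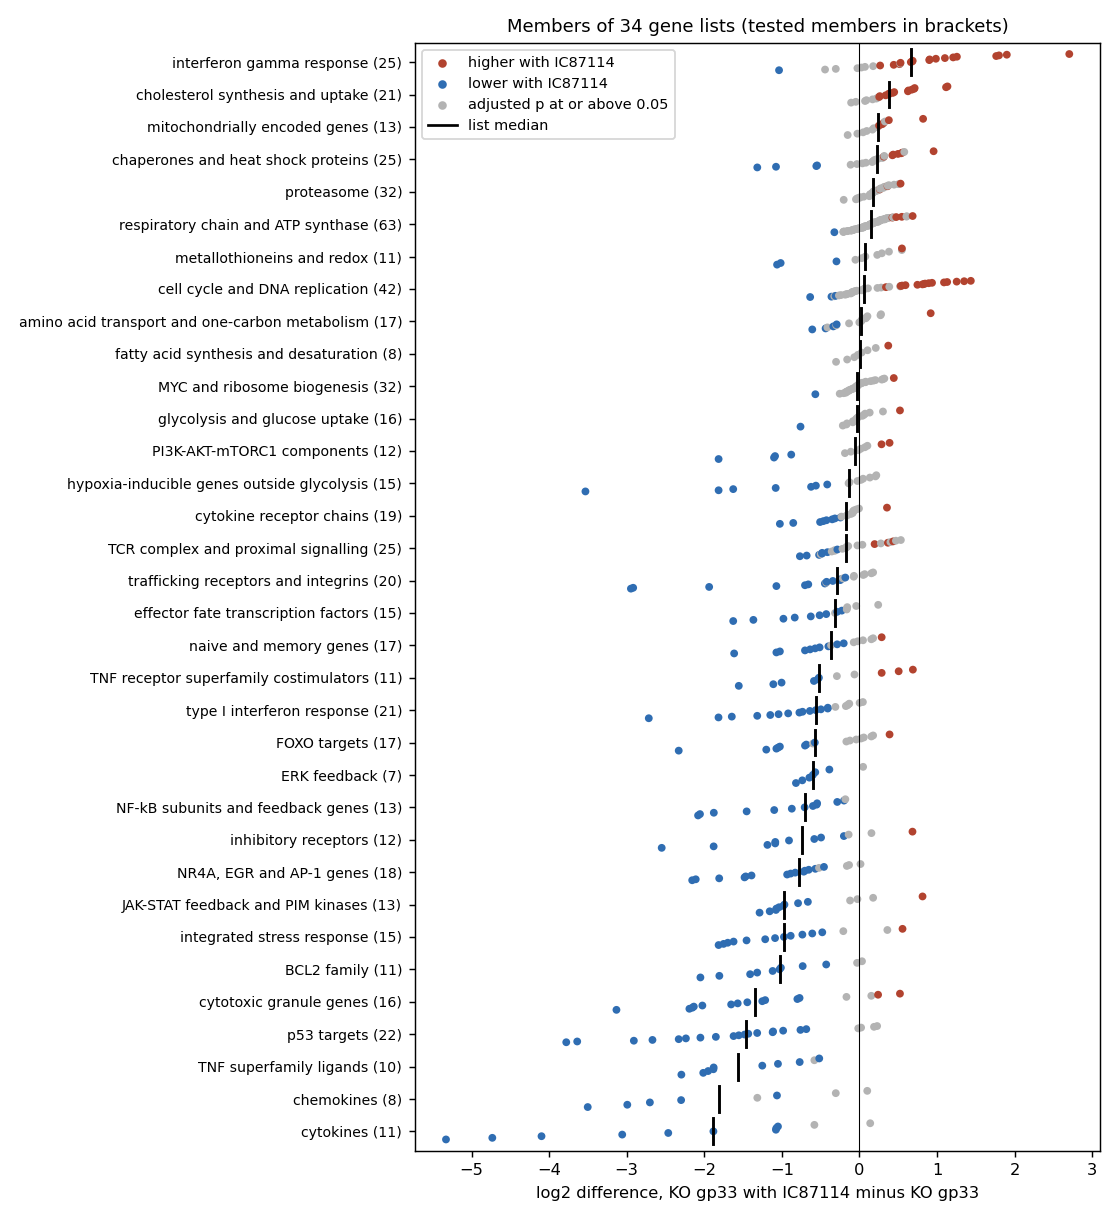
Log2 difference of each tested member (horizontal axis, KO gp33 with IC87114 minus KO gp33) in 34 gene lists (rows, with the number tested in brackets), ordered by list median (black line). Red and blue points were called higher and lower, grey points were not called. Interferon gamma response and cholesterol genes lie at the top and cytokines at the bottom.

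Part of the cell cycle list rose, including several mitotic genes. Of 42 tested, 15 were called higher and 3 lower (median 0.06), beside 8.24% of protein-coding genes called higher. These counts were 17 and 1 after median centring, and 15 and 6 after protein-coding rescaling. Aurka, a mitotic kinase, was at 14.6, 16.4 and 16 with IC87114, against 6.43, 4.36 and 5.98 without it (log2 difference 1.35 ± 0.20, adjusted p = 1.4e-04), and Plk1, another, at 5.76, 6.11 and 5.56 with IC87114, against 2.62, 1.87 and 1.88 without it (log2 difference 1.13 ± 0.10, adjusted p = 1.6e-06). Ube2c, which tags mitotic cyclins for destruction, was at 36.6, 37.5 and 40.6 with IC87114, against 15.2, 10.6 and 15.2 without it (log2 difference 1.44 ± 0.28, adjusted p = 0.0015), Ccnb1, the mitotic cyclin, changed by 1.09 and Hmgb2 by 1.25. The lowest of the 3 libraries without IC87114 was replicate 2 in 15 of these 15 genes; without that library 11 were called higher and 4 lower.

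Replication-dependent histone genes were among the most raised, with H2ac24 at 3074, 2797 and 2720.3 with IC87114, against 1485, 982 and 1162 without it (log2 difference 1.26 ± 0.33, adjusted p = 0.0097). H2ac23 changed by 1.26 and H2ac10 by 1.28, both not called without replicate 2 of the libraries lacking IC87114, at 1.118 and 1.083, and H2ac10 not without replicate 1 of those with it, at 1.216; these genes share nearly the same coding sequence, so the division of reads among them is uncertain. Their transcripts mostly lack the poly(A) tail on which these libraries were selected. Tuba4a, a tubulin, was at 75.5, 76.6 and 72.6 with IC87114, against 37.7, 20.6 and 34.8 without it (log2 difference 1.29 ± 0.17, adjusted p = 6.1e-05), and Tubb5, another, changed by 0.75.

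Cholesterol synthesis genes rose together by modest amounts. Of 21 tested, 14 were called higher and 0 lower (median 0.38). After median centring 16 were called higher and 0 lower, and after protein-coding rescaling 12 higher and 1 lower. Msmo1, a sterol demethylase, was at 24.7, 27.2 and 26.9 with IC87114, against 12.5, 10.4 and 11.9 without it (log2 difference 1.12 ± 0.13, adjusted p = 1.4e-05), and Fdps, which makes farnesyl pyrophosphate, was at 10.1, 11.1 and 11.1 with IC87114, against 5.15, 3.69 and 4.35 without it (log2 difference 1.14 ± 0.19, adjusted p = 4.9e-04). Cyp51 changed by 0.71, Sc5d by 0.70, Sqle by 0.63 and Idi1 by 0.43, the last not called without replicate 2 of the libraries lacking IC87114 (0.338). Srebf2, which encodes the controlling factor SREBP2, changed by -0.11, not past the threshold.

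As in the cell cycle list, replicate 2 without IC87114 was the lowest of its group in 12 of the 14 called cholesterol genes. Replicate 1 was the lowest of the libraries with IC87114 in 11 of them. Without replicate 2 of the libraries lacking IC87114, 9 members were called higher, and without replicate 2 of those with it 9, which are the lowest counts among the 6 fits that left out a library.

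**Figure D4:**
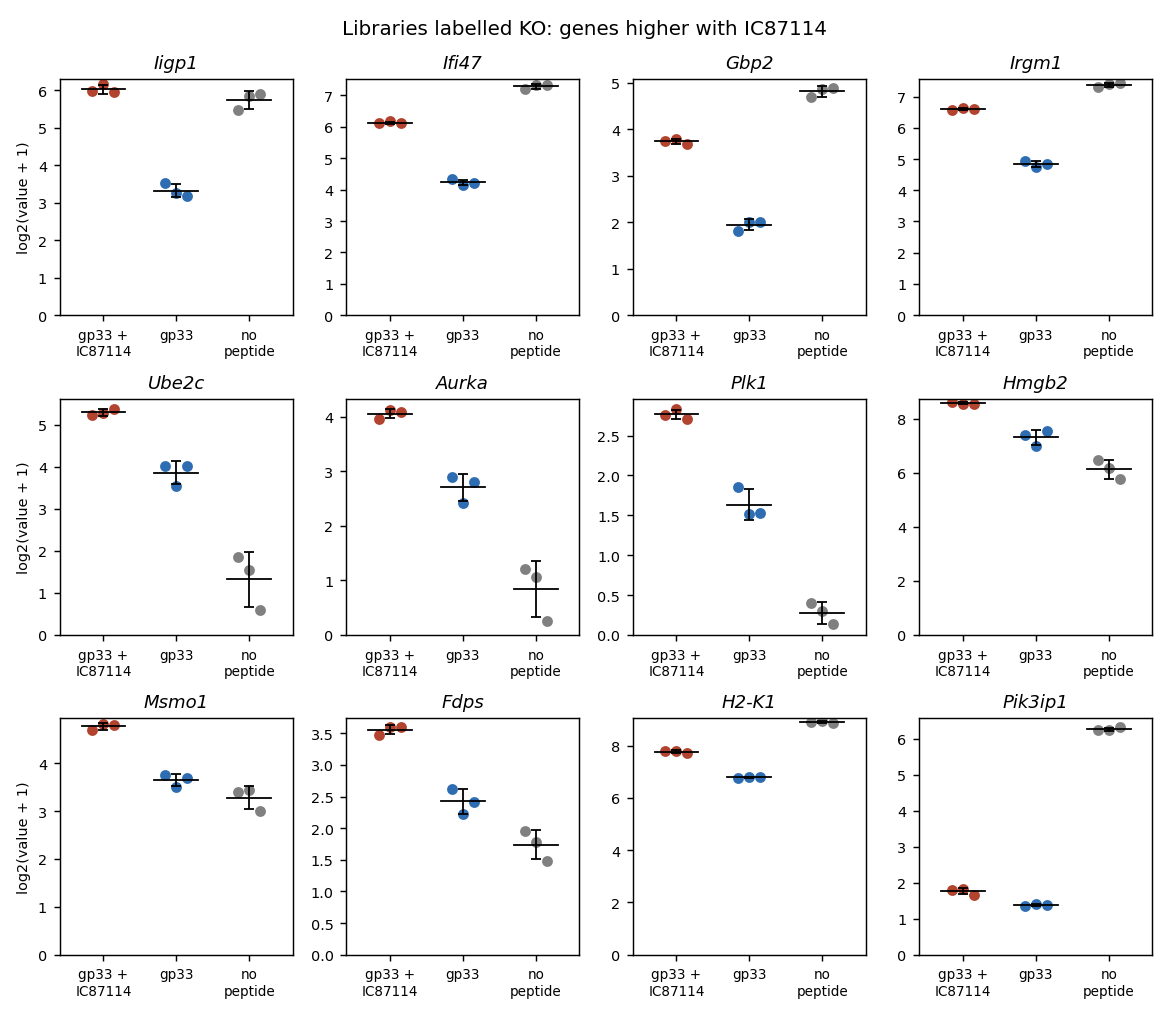
Log2(normalized value + 1) of 12 genes (vertical axes) in the libraries labelled KO with gp33 and IC87114, with gp33 alone and without peptide (horizontal axes). Points are libraries, horizontal lines means and bars the SD of 3. The top row and H2-K1 show interferon gamma response genes, with 3 of the 4 in the top row highest without peptide; mitotic and cholesterol genes are highest with IC87114.

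The same addition of IC87114 was made to WT cells, in libraries that share none with the KO comparison. There 868 genes (8.46%) were called, 340 higher (3.31%) and 528 lower (5.15%). Genes called under both labels numbered 530, which was 18.2% of the KO calls and 61.1% of the WT calls, and 494 of them had the same direction. Replicate 2 of the WT libraries with IC87114 had the lowest correlation with its group of all 18 libraries, 0.961; without it 940 genes were called in WT. The WT calls numbered 263 with only the 6 WT libraries in the fit, and 433, 452 and 534 without replicates 1, 2 and 3 of the WT libraries lacking IC87114.

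The difference of the effects, KO minus WT, was called for 999 genes (9.74%), 335 higher (3.27%) and 664 lower (6.47%). In 852 of them the effect was larger in size in the libraries labelled KO, and in 147 in WT. Csf2 changed by -5.33 in KO and -0.71 in WT (difference -4.62 ± 0.51, adjusted p = 5.7e-05 for the difference), and Il2 by -2.46 in KO and -0.28 in WT (difference -2.18 ± 0.25, adjusted p = 8.9e-05). Ifng changed by -4.10 in KO and -3.87 in WT, Gzmb by -2.15 and -3.09, Prf1 by -2.13 and -1.97, and Ccr8 by -2.95 and -2.89. For these 4 genes the difference was not called (Ifng, difference -0.23 ± 1.07, adjusted p = 0.92). The other values were 0.94 ± 0.70 with an adjusted p of 0.44 for Gzmb, -0.17 ± 0.21 with an adjusted p of 0.68 for Prf1, and -0.06 ± 0.17 with an adjusted p of 0.87 for Ccr8. A difference not called does not show equal effects. For Ifng and Gzmb the standard errors were wide, so a large difference could have gone uncalled.

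The difference between the effects was also counted by list. Of all genes tested, 6.47% had a difference called lower in KO and 3.27% one called higher. These shares include processed pseudogenes, and none was computed for protein-coding genes alone. Of the 22 p53 targets, 16 had a difference called lower in KO, with a median effect of -1.46 in KO and -0.34 in WT. NF-kB genes had 10 of 13, NR4A, EGR and AP-1 genes 10 of 18, and integrated stress response genes 8 of 15. Among cytotoxic genes 5 of 16 had such a difference, and the list median was -1.35 in KO and -0.46 in WT. Of 25 interferon gamma response genes, 6 had a difference called higher in KO, among them Irgm1 (1.76 in KO, 0.34 in WT, difference 1.43 ± 0.26, adjusted p = 0.0035), whereas H2-K1 changed by 0.99 in KO and 0.74 in WT (difference 0.25 ± 0.10, adjusted p = 0.13).

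Pik3ip1 was itself among the genes with a called difference, at 0.39 in KO and -0.11 in WT (difference 0.50 ± 0.11, adjusted p = 0.009). Because its level goes against the label, each direction between KO and WT given here is one between libraries as labelled. A difference called lower in KO was found for 0 of 11 B cell, 2 of 9 MHC class II, 1 of 7 myeloid and 1 of 3 NK markers. The share over all genes tested was 6.47%. The part of these cells in the other differences was not tested.

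**Figure D5:**
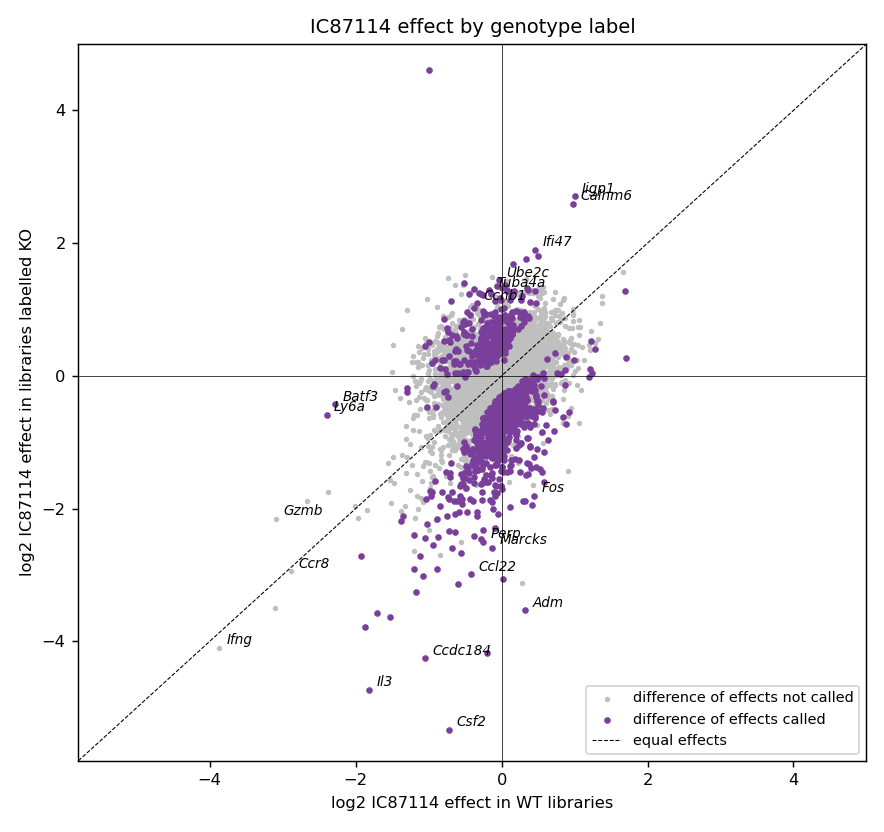
Log2 effect of IC87114 in gp33-stimulated libraries labelled KO (vertical axis) against that in WT libraries (horizontal axis), 1 point per gene tested. Purple points had a called difference between the effects, and the dashed line marks equal effects. Csf2, Il3 and Adm lie far below the line, while Ifng and Ccr8 lie near it.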

How the data were processed

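Bulk RNA sequencing libraries from sorted CD8 T cells were prepared with a stranded, poly(A)-selecting kit, per the labels' protocols. The deposited table, whose name says that the authors normalized it in Partek, gives 23414 genes in 18 libraries. Its deposited values were read as log2(value + 1). Base, offset and normalization method, as well as the aligner, the counting tool and its use of strand, are not given in the sources used here. GRCm38 and GRCm39 both appear in the submitters' processing notes with no role stated, so no coordinate is taken from the table. The values are not whole reads, so the depth is unknown and no counting interval is given. Genotype and treatment were taken from the titles, which the treatment fields match; the protocol text names gp33 for every culture.

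Values were back-transformed as 2 to the power of the value, minus 1. Genes with a value of at least 1 in 3 or more of the 18 libraries were tested (10257 genes, of which 3352 were processed pseudogenes). A single linear model that gives each group its own mean was fitted over all 18 libraries on log2(value + 1), using R 4.3.3, limma 3.58.1 (trended and robust moderation) and statmod 1.5.0, which left 12 residual degrees of freedom. Tests were 2-sided, and a gene was called when its p, adjusted by Benjamini-Hochberg over all genes tested, was under 0.05.

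Besides Pik3ip1, the text names the 15 largest and 15 smallest called differences whose groups do not overlap, among protein-coding symbols with a mean log2 level of 2 or more. It also names the 4 members of each of 34 gene lists and 7 marker lists with the smallest p, any tested member of 8 lists close to the pathway, and the 8 largest and 8 smallest called differences between genotypes. Of 906 list entries, 898 were found in the table. The members, the lists and the naming rule were chosen with earlier results of these data known. Alternatives changed the pseudocount (0.1 or 0.5), the filter, the libraries in the fit, the scaling, the moderation, the block and the libraries left out. Promoters of 300 bases were taken from RefSeq on GRCm38.p6 by gene symbol. Some genes that the naming rule takes are not reported here.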

Additional observations from a re-analysis of the deposited data

Results flagged for a closer look

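The effect of IC87114 differed between the libraries labelled KO and the WT libraries for 999 genes, by limma's test of the difference itself. The following 16 genes were selected for the size of that difference, so their values describe the selection. A negative difference means a lower effect in KO.

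The 8 most negative included 3 cytokine or chemokine genes with little change in WT or less change than in KO. Csf2 differed by -4.62 (-5.33 in KO, -0.71 in WT), Il3 by -2.92 (-4.73 in KO, -1.82 in WT) and Ccl22 by -2.57 (-2.99 in KO, -0.42 in WT). Adm, which encodes adrenomedullin, differed by -3.86 (-3.53 in KO, 0.33 in WT), and Ccdc184, a coiled-coil protein gene, by -3.21 (-4.26 in KO, -1.05 in WT). The AP-1 gene Fos differed by -2.25 (-1.81 in KO, 0.45 in WT) and the p53 target Perp by -2.24 (-2.50 in KO, -0.25 in WT). Marcks, a substrate of protein kinase C, differed by -2.46 (-2.59 in KO, -0.13 in WT); its values in KO were 0.927, 0.961 and 0.775 with IC87114, against 8.42, 20.6 and 6.24 without it, with replicate 2 standing apart.

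Among the 8 most positive, 2 genes fell more in WT than in KO. Batf3, an AP-1 family factor, differed by 1.85 (-0.43 in KO, -2.28 in WT), and Ly6a, the activation marker Sca-1, by 1.81 (-0.59 in KO, -2.40 in WT). The other 6 were genes that rose in KO. They were Iigp1 at 1.71 (2.71 in KO, 1.0 in WT), Calhm6 at 1.61 (2.59 in KO, 0.98 in WT) and Ifi47 at 1.44 (1.90 in KO, 0.46 in WT), with the mitotic genes Ube2c at 1.47 (1.44 in KO, -0.03 in WT) and Ccnb1 at 1.43 (1.09 in KO, -0.34 in WT) and the tubulin gene Tuba4a at 1.46 (1.29 in KO, -0.17 in WT). Each group had 3 libraries, so single libraries were not tested for standing apart.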

How the results depend on the processing

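The 2917 genes called in the libraries labelled KO became 4389 with no filter on low values, 1736 with a filter 5 times as high (5496 genes tested) and 4947 with only the 6 libraries compared in the fit; apart from the number of genes tested, the cause was not tested. Leaving out 1 of the 6 libraries gave 2029 to 2458, and leaving out replicate 2 of the WT group with IC87114 gave 4053. The 999 genes with a difference between genotypes became 660 with the higher filter, and 569 to 1477 when a library was left out; without any 1 of the 3 KO libraries with IC87114 they numbered 605 to 648, without KO gp33 replicate 2 569, and without WT gp33 replicate 2 or 3 630 and 587. The 868 WT calls became 263 with only the 6 WT libraries, and 433 to 995 when a library was left out, with 433, 452 and 534 without WT gp33 replicates 1, 2 and 3. Whether replicate numbers pair the KO libraries was not settled. Same-numbered libraries deviated together at 0.195, 0.0262 and 0.0808, and differently numbered ones at -0.174 to 0.109. Replicate 3 with IC87114 correlated best with replicate 2 without it, so not every library correlated best with its own number. With the replicate block 2788 genes were called in KO, 649 in WT and 790 for the difference. Of the 150 genes named with a log2 difference, 134 had the same direction and no lost call under every alternative in which they were tested. The filter 5 times as high left some of the 150 untested, among them Chac1, Cd70 and Fas. Direction turned in 3 genes that were not called: Pdk1 ran between -0.008 and 0.11 when a library was left out, and Slc2a1 between -0.003 and 0.074; after protein-coding rescaling Pdk1 was -0.008 and Slc2a1 -0.039, and Srebf2 0.009 after median centring. Batf3, Scd2, Spry1, Dusp5, Hk2, Prdx1, Ctsc, Idi1 and Tcf7 were among those that lost a call under some alternative. The 7 genes Eomes, Hif1a, Il16, Irf4, Ldha, Srebf2 and Tnf, not called as given, were called under 1 to 3 alternatives each. The depth is unknown, so genes with low values carry an error that cannot be computed from counts.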

Other observations

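Chaperone genes were called in both directions, while few proteasome and respiratory chain genes were called. Of all protein-coding genes tested, 8.24% were called higher and 27.5% lower. Of 25 chaperone and heat shock genes, 7 were called higher and 4 lower with IC87114. These counts were 8 and 3 after median centring and 6 and 4 after protein-coding rescaling. The inducible Hspa1b was at 0.455, 0.565 and 0.261 with IC87114, against 2.89, 3.03 and 1.82 without it (log2 difference -1.32 ± 0.13, adjusted p = 2.9e-06), and its near-identical copy Hspa1a changed by -1.07, while the cochaperone genes Dnaja1 (0.50) and Hsph1 (0.44) were higher. Proteasome genes had 3 of 32 called higher and 0 lower, and after protein-coding rescaling 1 higher and 1 lower. Respiratory chain genes had 4 of 63 called higher and 1 lower, against 9 and 0 after median centring and 2 and 2 after rescaling. Of 13 mitochondrially encoded genes, 5 were called higher and 0 lower, and 2 and 1 after rescaling. Without replicate 2 or 3 of the libraries with IC87114 3 and 2 were called higher, and without replicate 1 or 2 of those lacking it 1 and 3. Of the genes called, mt-Nd3, a complex I subunit, was at 127, 114 and 126 with IC87114, against 79.5, 66.8 and 61.2 without it (log2 difference 0.82 ± 0.13, adjusted p = 2.8e-04).

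In growth metabolism, Myc, the growth factor-induced transcription factor, was at 114, 123 and 112 with IC87114, against 192, 169.7 and 159 without it (log2 difference -0.57 ± 0.12, adjusted p = 0.0025), while of 32 genes in its list 1 was called higher and 1, Myc, lower. Of 17 amino acid and one-carbon genes, 1 was called higher and 4 lower, beside 8.24% and 27.5% of all protein-coding genes tested. Mat2a, which makes the methyl donor S-adenosylmethionine, was at 60.5, 66.4 and 62.7 with IC87114, against 43.3, 29.7 and 27.7 without it (log2 difference 0.92 ± 0.15, adjusted p = 4.8e-04), and the asparagine synthetase gene Asns changed by -0.61. Fatty acid synthesis genes had 1 of 8 called higher, Scd2 (0.37), a call lost in each fit that left out 1 of the 6 libraries, after protein-coding rescaling, with the replicate block, with no filter and at both other pseudocounts, and 2 after median centring. Among redox genes, 3 of 11 were called lower, near the 27.5% of all protein-coding genes, including Hmox1, haem oxygenase, at 0.460, 0.430 and 0.783 with IC87114, against 2.35, 2.28 and 2.09 without it (log2 difference -1.06 ± 0.11, adjusted p = 5.5e-06), and 1 higher, Prdx1 (0.55).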
